A study of Homo sapiens with 8 samples.

Results

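The 9 genes described here code for the oncostatin M (OSM) receptor and its closest partners in interleukin-6 (IL6) family signalling, namely OSMR, IL6ST, LIFR, IL6R, LIF, IL6, JAK1, STAT3 and SOCS3. They are 9 of the 20339 genes in the count table. OSMR was picked because its normalized counts in bulk cells differed strongly, and in opposite directions, between the MGP-manipulated and control libraries of the 2 lines, and the other 8 genes because they belong to the same pathway. The bulk values of OSMR are therefore given as a description of how it was picked.

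The study sequenced RNA from OVCAR3 and COV318, both established lines derived from human ovarian carcinoma, to compare cells with and without matrix Gla protein (MGP). OVCAR3-MGPKO cells came from clones isolated after transfection of pX458, a plasmid that carries Cas9, GFP and, here, 2 guides against exon 1 of MGP, and OVCAR3-CTR is the control. COV318-MGP cells were transduced with a lentivirus carrying the MGP cDNA (EX-Z9471-Lv122) and COV318-CTR cells with the empty vector EX-NEG-Lv122, and both were selected with puromycin. Each of these 4 was sequenced once as adherent cells in serum (bulk) and once as spheres enriched for ovarian cancer stem cells (OCSC), which were kept without serum and without attachment in medium with B27, EGF and FGF2. OVCAR3 cells were at passage 4 and COV318 cells at passage 18. There are thus 8 libraries, 1 per condition and no replicates, so no difference between 2 of them has a test, and every 95% interval is an exact Clopper-Pearson interval of the ratio of 2 counts that covers counting error only.

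Cytokines of the IL6 family signal through receptors that share the subunit gp130, encoded by IL6ST. IL6 first binds its own receptor chain, IL6R. LIF brings gp130 together with LIFR, and OSM brings gp130 together with either OSMR or LIFR. The kinase JAK1, bound to these chains, phosphorylates the transcription factor STAT3, and STAT3 turns on SOCS3, which binds gp130 and JAKs and shuts the signal down. In ovarian cancer the family is best known for IL6 and LIF in ascites fluid and for OSM made by macrophages.

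Counts assigned to genes summed to between 12294591 and 37393919 in a library. MGP itself reached 40393 (bulk) and 28694 (OCSC) counts after transduction of COV318 and 1 and 0 with the empty vector, but only 0 to 2 in the 4 OVCAR3 libraries. These counts thus do not check the knockout, and the libraries are called the libraries labelled OVCAR3-MGPKO. The study's methods describe the knockout clones as found by PCR and sequencing. The paper also reports MGP protein in OVCAR3, and its loss in the knockout by RT-qPCR, western blot and immunofluorescence. In OVCAR3-CTR, MGP had 0 counts in bulk and 1 in OCSC here. The COV318-MGP libraries stood apart. Across genes, Pearson's r of log2(normalized count + 1) was 0.747 to 0.757 between COV318-MGP and COV318-CTR. COV318-CTR with OVCAR3 gave 0.798 to 0.806, and the OVCAR3 libraries with each other 0.950 to 0.979. COV318-MGP with OVCAR3 gave 0.771 to 0.786, so COV318-MGP was more like the other line than like its own control. In both COV318-MGP libraries 6 of 10 ovarian carcinoma markers were at or under 3 counts, among them KRT7, PAX8 and SOX17 at 0, and no marker was that low in the other 6 libraries. The summed normalized count of the 10 markers was 18814 to 50772 in COV318-CTR and 1782 to 8350.1 in COV318-MGP. The OCSC sum of COV318-MGP was mostly KRT18 (6886, against 3561 in its control) and KRT8 (1407 against 158, log2FC 3.15), which went the other way. Of 4 mesothelial markers 2 were analysed, UPK3B and LRRN4, whose sum was 7860.5 and 3360.0 in COV318-CTR bulk and OCSC and 1.10 and 2.86 in COV318-MGP. The sum of 7 fibroblast markers was 170 and 34.2 in COV318-CTR bulk and OCSC and 240 and 255 in COV318-MGP. These markers were mixed in bulk, with PDGFRA at 2 and 222 counts, control first, but PDGFRB at 118 and 15. DCN was at 10 and 2 counts there and COL1A1 at 143 and 146. The sum of the 2 leukocyte markers analysed, of 6, was 11.3 and 19.3 in COV318-CTR and 39.0 and 87.3 in COV318-MGP. How far this bears on the COV318 values below was not tested, and in such cultures fewer cells of a type and less RNA per cell cannot be told apart. Nor can an effect of MGP be told apart here from any other difference between the COV318-MGP and COV318-CTR cell populations.

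OSMR, the chain that makes a gp130 receptor specific for OSM, lies at chr5:38845858-38945596 (hg38, plus strand, GENCODE 44). Its level went in opposite directions in the 2 lines. In OVCAR3 bulk its normalized count (the count over its library's size factor) was 6.17 in OVCAR3-CTR and 249 in the library labelled OVCAR3-MGPKO, from 4 and 217 counts. In OVCAR3 OCSC it was 11.2 and 171, from 12 and 196 counts. COV318-CTR held 786 in bulk and 892 in OCSC, whereas COV318-MGP held 20.3 and 75.9. Both cultures of OVCAR3-CTR and of COV318-MGP were thus low, the libraries labelled OVCAR3-MGPKO were in between, and COV318-CTR was high. The log2 fold change (log2FC, on the normalized count + 1, manipulated against control) was 5.13 in OVCAR3 bulk (95% interval of the ratio 3.96 to 7.23) and -5.20 in COV318 bulk (-5.78 to -4.80).

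The OCSC libraries had OSMR 14.1-fold higher in OVCAR3 (log2FC 3.82, 3.10 to 4.91) and 11.6-fold lower in COV318 (log2FC -3.54, -3.99 to -3.15). OSMR was picked by its bulk values, but the OCSC libraries came from the same cell populations as the bulk libraries. The 9 genes were also chosen with earlier results of these data known. With genes counted as different at a log2FC of at least 1 in size, 303 of 14518 genes (2.09%) had this pattern, up in the OVCAR3 pair and down in the COV318 pair, in OCSC, and 506 of 14970 (3.38%) in bulk. In both cultures this held for 75 of 14053 genes (0.534%), OSMR among them, though its bulk part was fixed when OSMR was picked. OSMR was the only one of the 9 genes with this pattern in either culture. The exception was SOCS3, which joined it in bulk when libraries were scaled by their totals alone (1.07 in OVCAR3).

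The promoter of OSMR is shown with those of LIFR because the 2 genes are chromosomal neighbours with opposite values in COV318. Each window holds 250 bases before and 50 bases from the annotated start in RefSeq (GRCh38.p14). Capitals mark matches, on either strand, to TTCNNNGAA (the core bound by STAT factors), GGGNNTTCC (a core bound by NF-kB) or TGANTCA (a core bound by AP-1). OSMR has 1 window and LIFR 3, of which the outer 2 are printed.

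OSMR, chr5:38845762-38846061, plus strand: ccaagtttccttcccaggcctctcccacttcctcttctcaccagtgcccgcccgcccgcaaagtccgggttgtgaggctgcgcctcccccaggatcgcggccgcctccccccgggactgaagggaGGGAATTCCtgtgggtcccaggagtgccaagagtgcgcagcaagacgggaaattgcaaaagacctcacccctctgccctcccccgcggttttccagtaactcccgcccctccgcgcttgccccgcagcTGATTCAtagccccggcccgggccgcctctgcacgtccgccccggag
LIFR, 3′-most window, chr5:38556597-38556896, minus strand: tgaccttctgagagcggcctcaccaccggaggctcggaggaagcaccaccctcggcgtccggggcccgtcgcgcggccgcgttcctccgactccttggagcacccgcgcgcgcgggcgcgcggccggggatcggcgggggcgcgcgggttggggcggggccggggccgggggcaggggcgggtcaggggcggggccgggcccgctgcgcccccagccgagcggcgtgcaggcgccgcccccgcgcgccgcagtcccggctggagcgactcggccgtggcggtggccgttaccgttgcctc
LIFR, 5′-most window, chr5:38595356-38595655, minus strand: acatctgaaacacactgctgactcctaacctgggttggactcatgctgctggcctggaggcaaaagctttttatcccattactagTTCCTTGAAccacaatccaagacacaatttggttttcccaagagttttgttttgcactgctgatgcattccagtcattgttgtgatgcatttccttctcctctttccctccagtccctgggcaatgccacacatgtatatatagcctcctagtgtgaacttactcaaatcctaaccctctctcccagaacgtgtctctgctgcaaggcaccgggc

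The OSMR window had a GC content of 67.7% and held 1 match to GGGNNTTCC, which begins 125 bases before the start, 1 match to TGANTCA just after the start, and none to TTCNNNGAA. The windows of LIFR differed from it and among themselves. The 3′-most, with a GC content of 81.7%, held none of these letters, whereas the 5′-most (47.3% GC) held TTCNNNGAA 165 bases before its start and the middle window, at chr5:38557418-38557717 (42.3% GC), held it 182 bases before its start. Over 35116 promoter windows of the same length, 7.66% held TTCNNNGAA, 6.58% GGGNNTTCC and 7.71% TGANTCA. Among the 13 windows found for 8 of the 9 genes, each motif was in 2. A match is only a run of letters, and no binding was measured.

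LIFR, the chain that LIF needs and that OSM can also use, was higher in COV318-MGP than in COV318-CTR in both cultures. Its normalized count was 417 in COV318-CTR and 2135 in COV318-MGP in bulk, and 265 and 2574 in OCSC, a log2FC of 2.35 (2.24 to 2.47) and 3.28 (3.06 to 3.51). In OVCAR3 bulk it was 241 in the control and 517 in the library labelled OVCAR3-MGPKO, a log2FC of 1.10 (0.84 to 1.38). OVCAR3 OCSC had 697 and 901, and there the log2FC of 0.37 was under the threshold. LIFR thus had the same sign in both lines, unlike OSMR, and its 2 highest values were those of COV318-MGP.

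The balance of the 2 OSM receptor chains, compared per base of merged exons, reversed in COV318. In TPM (a library's counts per base, scaled to a common total), OSMR was at 16.2 and LIFR at 5.05 in COV318-CTR bulk, so OSMR was 3.20 times LIFR (2.93 to 3.49), and in COV318-CTR OCSC it was 5.71 times LIFR (4.83 to 6.79). In COV318-MGP, LIFR was 61.9 times OSMR in bulk (44.8 to 88.1) and 20.0 times in OCSC (15.2 to 26.8). OVCAR3-CTR also had more LIFR, 23.0 times OSMR in bulk (8.81 to 85.5) and 36.7 times in OCSC (20.9 to 71.4). In the libraries labelled OVCAR3-MGPKO the ratio was 1.22 in bulk (1.04 to 1.45) and 3.10 in OCSC (2.66 to 3.63). COV318-CTR was the only condition with more OSMR than LIFR, in both cultures. With the length of the longest transcript instead, LIFR over OSMR in the bulk library labelled OVCAR3-MGPKO was 1.09 (0.92 to 1.28), so there the 2 levels were not told apart.

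**Figure D1:**
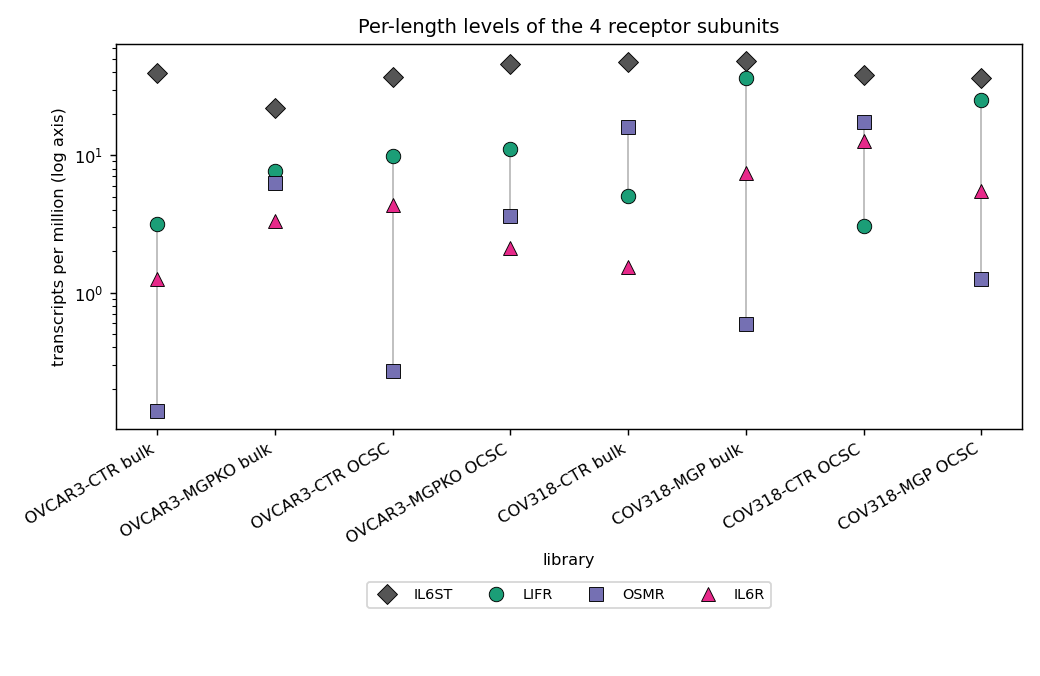
TPM (y axis, log scale) of IL6ST, LIFR, OSMR and IL6R in the 8 libraries (x axis), with a grey line joining OSMR and LIFR of the same library. IL6ST stays between 22.1 and 48.0, OSMR runs from 0.137 to 17.4, and OSMR lies above LIFR only in the COV318-CTR libraries.

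IL6ST, the shared chain gp130, varied least of the 9 genes. Its normalized count was 3011 and 1483 in bulk OVCAR3-CTR and the library labelled OVCAR3-MGPKO, and 2589 and 3696 in OCSC. COV318-CTR and COV318-MGP had 3909 and 2783 in bulk and 3309 and 3699 in OCSC. The highest library was 2.63 times the lowest, against 145-fold for OSMR. Only in OVCAR3 bulk did IL6ST reach the threshold, with a log2FC of -1.02 (-1.12 to -0.92), and the sign was opposite in OVCAR3 OCSC (0.51). In every library IL6ST was at a higher TPM than OSMR, LIFR and IL6R, and in COV318-MGP LIFR came to 0.76 of IL6ST in bulk and 0.69 in OCSC.

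IL6R, the chain that binds IL6 itself, was higher in the manipulated library in bulk and lower in OCSC, in both lines. In bulk its normalized count was 55.5 in OVCAR3-CTR, 129 in the library labelled OVCAR3-MGPKO, 72.7 in COV318-CTR and 249.7 in COV318-MGP. In OCSC the same 4 had 175, 97.9, 632 and 321. IL6R was 2.30-fold higher in OVCAR3 bulk (log2FC 1.20, 0.66 to 1.80) and 3.40-fold higher in COV318 bulk (log2FC 1.77). The log2FC was -0.83 (-1.18 to -0.49) and -0.98 (-1.22 to -0.74) in their OCSC. The OCSC values were under the threshold, though none of the 4 intervals held 0, and the one in COV318 passed it with scaling by totals alone (-1.03). Its highest value, in COV318-CTR OCSC, was 11.4 times its lowest.

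Among the ligands, LIF, which keeps stem cells undifferentiated in mouse cultures and acts through LIFR, was lower in every manipulated library than in its control. In OVCAR3 bulk it stood at 1529.7 in the control and 827 in the library labelled OVCAR3-MGPKO, whereas OCSC gave 784 and 453. These OVCAR3 differences, a log2FC of -0.89 (-1.03 to -0.75) and -0.79 (-0.95 to -0.63), were under the threshold. COV318-CTR bulk held the most, 2163, and COV318-MGP bulk the least, 39.6, a log2FC of -5.74 (-6.13 to -5.44). In COV318 OCSC the counts were 297 and 60.1, a log2FC of -2.29 (-2.82 to -1.82). LIF was therefore lowest in the libraries where its receptor chain LIFR was highest.

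IL6, the founding cytokine of the family, was low throughout. The 4 OVCAR3 libraries had 11.2 to 35.5 normalized counts, from 12 to 28 counts, and neither OVCAR3 comparison was told apart from no difference by counting. COV318-CTR had 78.1 in bulk and 56.5 in OCSC, whereas COV318-MGP had 1.65 and 2.86, from only 3 and 2 counts. The log2FC was -4.90 (-7.86 to -3.99) in bulk and -3.90 (-7.40 to -2.35) in OCSC. In every library except OVCAR3-CTR bulk, IL6 was the lowest or next to the lowest of the 9 genes in TPM.

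JAK1, the kinase that gp130 receptors depend on, was lower in the manipulated library in both lines and both cultures. OVCAR3-CTR had 5921 in bulk and 5355 in OCSC, and the libraries labelled OVCAR3-MGPKO 2778 and 2447. COV318-CTR had 8669 and 9226, and COV318-MGP 3454 and 3335. JAK1 thus lay at 5355 to 9226 in the 4 controls and at 2447 to 3454 in the 4 manipulated libraries. These are labelled as a knockout in OVCAR3 and an overexpression in COV318, and the share of all genes separated in this way was not counted. The log2FC was -1.09 (-1.17 to -1.02) and -1.13 (-1.20 to -1.06) in bulk and OCSC of OVCAR3, and -1.33 (-1.37 to -1.29) and -1.47 (-1.54 to -1.40) in COV318. Of 14053 genes, 58 (0.413%) were at -1 or below in all 4 comparisons. JAK1 was the only one of the 9 genes past the threshold in the same direction in all 4, and in OVCAR3 bulk it was -0.95 when libraries were scaled by their totals alone, which raised the median of all genes by 0.14.

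STAT3, which JAK1 activates, was lower in COV318-MGP and mixed in OVCAR3. COV318-MGP had 1096 against 3516 normalized counts in bulk and 1579 against 4024 in OCSC, a log2FC of -1.68 (-1.75 to -1.61) and -1.35 (-1.45 to -1.25). In OVCAR3 the normalized count was 1536 and 2045 in bulk, in OVCAR3-CTR and the library labelled OVCAR3-MGPKO, and 4322 and 2789.9 in OCSC. Its log2FC there was 0.41 and -0.63, both under the threshold and of opposite sign.

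SOCS3, the feedback inhibitor, had the largest TPM of the 9 genes in all 4 OVCAR3 libraries, at 94.4 to 202. Its normalized count in OVCAR3 was 1618 in OVCAR3-CTR and 3067 in the bulk library labelled OVCAR3-MGPKO, a log2FC of 0.92 (0.82 to 1.03), and 3033 and 2629 in OCSC (-0.21). In COV318 it was 1189 in COV318-CTR and 39.0 in COV318-MGP in bulk, a log2FC of -4.89 (-5.29 to -4.59). In OCSC it was 444 and 167, a log2FC of -1.40 (-1.73 to -1.09). SOCS3 was thus lower in COV318-MGP in both cultures, and the bulk library of COV318-MGP was its lowest.

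**Figure D2:**
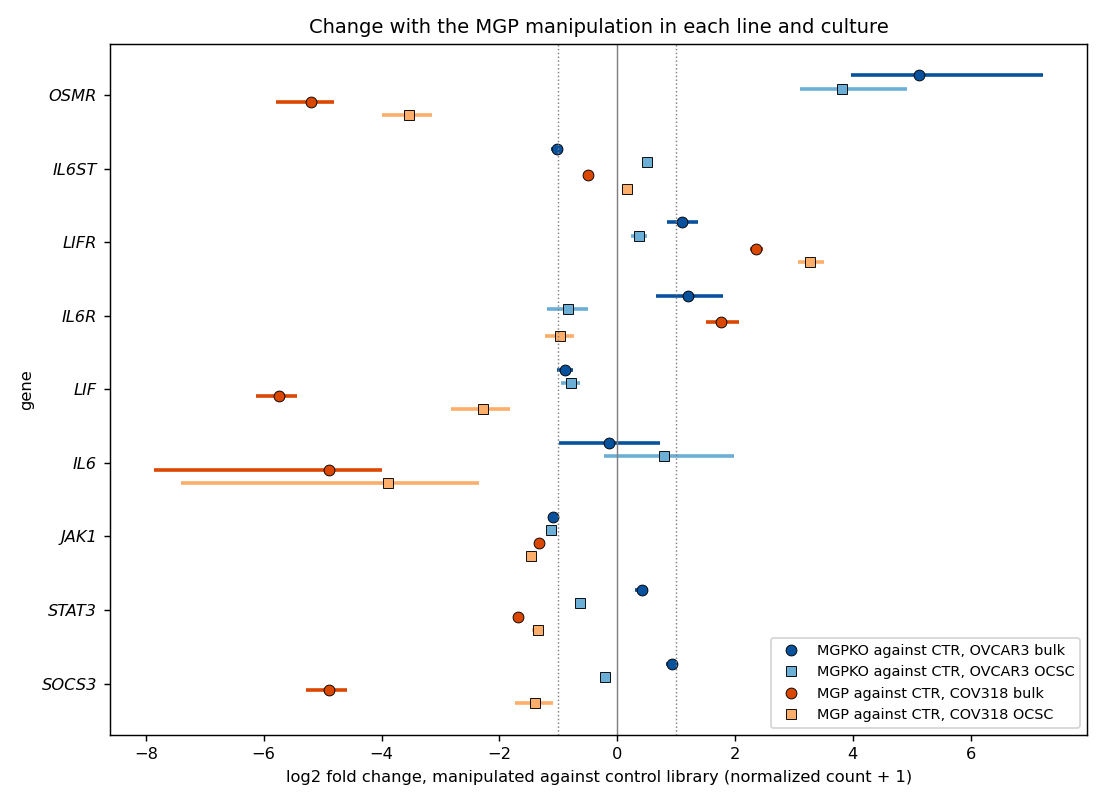
The log2 fold change of each gene (x axis) for the manipulated against the control library in the 4 combinations of line and culture, with lines for the 95% counting interval of the ratio and dotted lines at -1 and 1. OSMR lies right of 0 in OVCAR3 and left of it in COV318, LIFR lies right of 0 in all 4, and JAK1 lies left of -1 in all 4.

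Counted together, 5 of the 9 genes were at or past the threshold in OVCAR3 bulk, against 21.1% of all genes. The library labelled OVCAR3-MGPKO had more OSMR, LIFR and IL6R (13.1% of all genes were higher) and less IL6ST and JAK1 (8.00% were lower). In OVCAR3 OCSC only OSMR (higher, like 7.53% of all genes) and JAK1 (lower, like 4.94%) were, against 12.5% in either direction. In COV318 bulk 8 were, against 50.5%, with LIFR and IL6R higher (24.4% of all genes) and OSMR, LIF, IL6, JAK1, STAT3 and SOCS3 lower (26.1%) in COV318-MGP. In COV318 OCSC 7 were, against 53.1%, with LIFR higher (26.6% of all genes) and the same 6 genes lower (26.4%). The share lower in both cultures of COV318 was thus 6 of 9, where 18.2% of all genes were lower in both. These 9 genes were chosen with bulk values in view, so the bulk counts describe that choice. The share lower in both cultures uses the same bulk values and describes it too.

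The other gp130 ligands described were scarce except CLCF1, a ligand that acts through CNTFR and LIFR. In OVCAR3, CLCF1 had 413 normalized counts in the control and 391 in the manipulated library in bulk, and 533 and 343 in OCSC. In COV318-CTR it was at 77.0 in bulk and 59.4 in OCSC, and in COV318-MGP at 3.30 and 12.9, a log2FC of -4.18 (-6.01 to -3.39) and -2.12 (-3.43 to -1.14). EBI3, a subunit of IL27, was lower in COV318-MGP, with 68 against 1 counts in bulk, while 11 against 5 in OCSC were not told apart by counting. IL11 had at most 56 counts in a library, with a log2FC of -3.29 in bulk and 1.58 in OCSC of OVCAR3, and of -0.65 (-1.42 to 0.02) and 1.63 in COV318. CTF1 had at most 97 counts and CNTF at most 10. OSM and IL27 were not analysed here, so no level of the OSMR ligand itself is given.

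Of the 4 other receptor chains, 3 were higher in COV318-MGP in both cultures, where 24.4% of all genes were higher in bulk and 26.6% in OCSC. IL11RA, the IL11 receptor, went from 52.8 to 218 in bulk and from 23.8 to 172 in OCSC (log2FC 2.02 and 2.80). IL27RA, which pairs with gp130 for IL27, went from 8.08 to 224 and from 14.9 to 269 (log2FC 4.63 and 4.09). CNTFR had 1 count in COV318-CTR and 64 in COV318-MGP in bulk (log2FC 4.56, 3.50 to 11.36), and 0 and 49 in OCSC, at least 15.7-fold higher against a floor of 3 counts in the library at 0. IL31RA, which pairs with OSMR in the receptor for IL31, had at most 13 counts in any library, with 11 in COV318-MGP OCSC and 0 in its control. In OVCAR3, IL27RA was higher in bulk in the library labelled OVCAR3-MGPKO (143 and 419, log2FC 1.54) but not in OCSC (358 and 266, log2FC -0.43), and IL11RA was under the threshold in both.

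Of the other kinases and STATs described, STAT5A alone was past the threshold between manipulated and control libraries. JAK2, TYK2, STAT5B and the phosphatase PTPN11, which links gp130 to the MAP kinases, were under the threshold in all 4 comparisons. STAT5A was lower in COV318-MGP, with 631 against 3 counts in bulk and 227 against 0 in OCSC, where it was at least 78.5-fold lower. In OVCAR3, STAT5A was higher in the libraries labelled OVCAR3-MGPKO, at 54.0 against 20.0 in bulk and 76.1 against 23.3 in OCSC (log2FC 1.39 and 1.66).

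Of the negative regulators, SOCS2, which mainly restrains growth hormone signalling, did not follow SOCS3. It was higher in the manipulated library in all 4 comparisons, at 38.5 and 102 in OVCAR3 bulk, 14.0 and 91.8 in OVCAR3 OCSC, 2.69 and 307 in COV318 bulk and 2.97 and 278 in COV318 OCSC, control first. Its log2FC was 1.38 (0.75 to 2.11) and 2.63 (1.93 to 3.60) in OVCAR3 and 6.38 (5.60 to 8.46) and 6.13 in COV318, the last from 2 counts in the control. CISH, a STAT5 target and inhibitor, was also higher in COV318-MGP, from 7 to 52 counts in bulk and from 6 to 28 in OCSC. In OVCAR3 OCSC it was higher in the library labelled OVCAR3-MGPKO, from 7 to 24 counts (log2FC 1.54, 0.42 to 3.14). It was under the threshold in OVCAR3 bulk (0.25). SOCS1 was lower in COV318-MGP, from 35 to 2 counts in bulk and from 21 to 1 in OCSC. PTPN1, a phosphatase of JAKs, was lower in both COV318 cultures (log2FC -1.29 and -1.03). PIAS1 and PIAS3 were under the threshold in all 4 comparisons of manipulated with control library.

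A list of 20 genes known as STAT3 targets was compared in the same way, of which 18 were analysed. In COV318 bulk 14 of 17 were lower in COV318-MGP, against 26.1% of all genes, and 1, TIMP1, higher, against 24.4%. The median log2FC was -2.41 beside -0.04 for all genes. In COV318 OCSC 9 of 18 were lower, against 26.4%, and 3 higher, against 26.6%. The median was -0.92 beside 0.02, and it stayed at -0.92 with the 2 genes that had a library at 0 set to their bound. The 3 were TIMP1 and, named after their values were seen, PIM1 and JUNB, both lower in bulk (log2FC -2.02 and -4.71) and higher in OCSC (3.96 and 2.17). The cyclin CCND1 went from 21368 to 548 in bulk and from 4252 to 389 in OCSC, and the survival factor BCL2L1 from 4759 to 283 and from 2583 to 325. ICAM1, an adhesion molecule for leukocytes, had 7202 counts in COV318-CTR bulk and 2 in COV318-MGP bulk, and 1006 and 0 in OCSC, at least 348-fold lower. FOS, CEBPB, IRF1 and HIF1A were lower in both COV318 cultures too, with a log2FC of -7.41 in bulk and -1.40 in OCSC for FOS and between -3.74 and -1.62 for the other 3. TIMP1, an inhibitor of matrix metalloproteases, was higher in both, from 39.3 to 828 in bulk and from 10.4 to 2647 in OCSC. These 2 COV318-MGP libraries are those that stood apart, and 50.5% and 53.1% of all genes were past the threshold in them.

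The same list was compared in OVCAR3. In bulk 6 of 18 were lower, against 8.00% of all genes, and 2 higher, against 13.1%, with a median of -0.66 beside 0.02 for all genes. In OCSC 3 of 18 were lower, against 4.94%, and 2 higher, against 7.53%, with a median of -0.28 beside -0.01. FOS, VEGFA and LCN2 were lower in both cultures. VEGFA, the angiogenic growth factor, went from 5850.3 to 764 in bulk and from 1121 to 547 in OCSC. LCN2, an iron-binding acute phase protein, went from 2251 to 253 and from 1004 to 288. TIMP1 was higher here as well, from 21.6 to 205 in bulk and from 60.7 to 258 in OCSC. TIMP1 and SOCS2 were thus at or past the threshold, higher, in all 4 comparisons, as were 146 of 14053 genes (1.04%), and FOS, like JAK1, was lower in all 4.

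**Figure D3:**
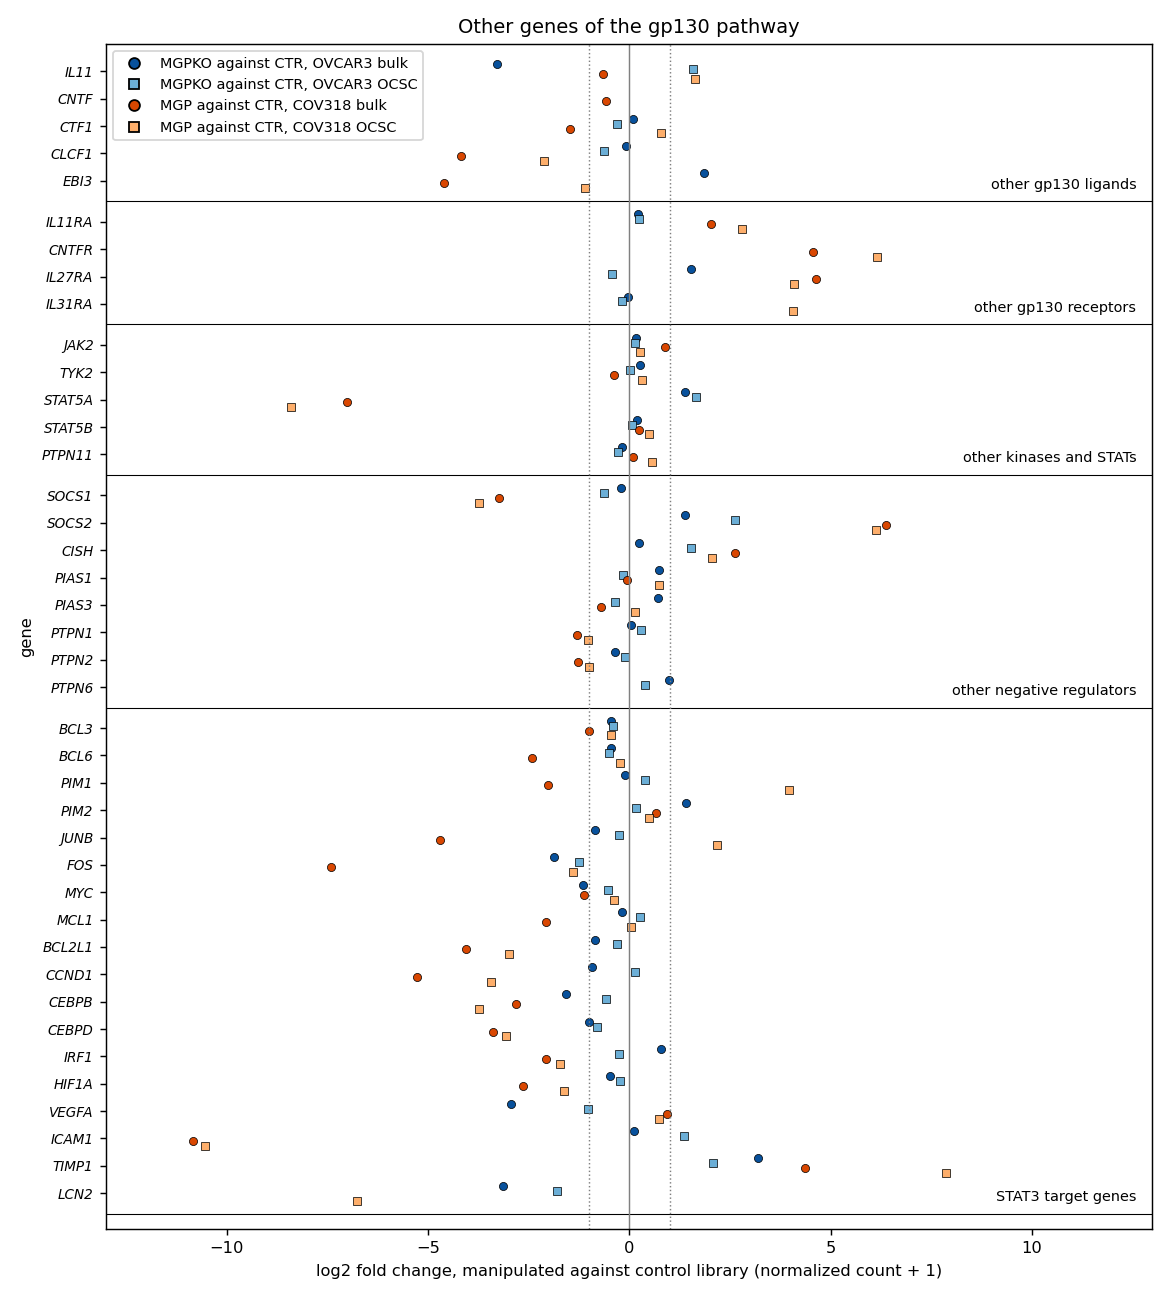
The log2 fold change (x axis, normalized count + 1) of the other pathway genes, grouped by role, for the manipulated against the control library, with a point only where 1 of the 2 libraries had at least 10 counts and dotted lines at -1 and 1. SOCS2 and TIMP1 lie right of 1 and FOS left of -1 in all 4 comparisons, and most STAT3 targets lie left of 0 in COV318 bulk.

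Between OCSC and bulk of the same cells, OSMR was under the threshold in COV318-CTR (log2FC 0.18, 0.04 to 0.32), in the libraries labelled OVCAR3-MGPKO (-0.54, -0.83 to -0.26) and in OVCAR3-CTR (0.77, -0.86 to 2.95). In COV318-MGP it was higher in OCSC than in bulk, a log2FC of 1.85 (1.27 to 2.55). In OVCAR3-CTR, 4 of the 9 genes were past the threshold between OCSC and bulk, against 25.3% of all genes, with LIFR, IL6R and STAT3 higher (log2FC 1.53, 1.64 and 1.49) and IL6 lower (-1.58). LIF (-0.96) joined them when libraries were scaled by their totals alone (-1.04). In the libraries labelled OVCAR3-MGPKO only IL6ST was, with a log2FC of 1.32, against 16.7% of all genes.

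In COV318-CTR, 3 of the 9 genes were past the threshold between OCSC and bulk, against 19.2%. IL6R was higher in OCSC (log2FC 3.10) and LIF and SOCS3 lower (-2.86 and -1.42). In COV318-MGP, OSMR and SOCS3 were higher in OCSC (1.85 and 2.07), 2 of the 8 genes tested, against 18.0%. In that comparison 1573 of all genes were higher and 1454 lower in OCSC, a split that turned to 1306 and 1822 with the TMM factors of edgeR and to 1129 and 2210 with library totals alone. OSMR and SOCS3 stayed past the threshold in OCSC under both.

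Over the 4 cell populations together, OCSC could be tested against bulk, with each population's own pair of libraries as a block. The 4 populations come from only 2 lines, each as control and manipulated cells, so they are not 4 independent replicates. By edgeR's quasi-likelihood test 0 of the 9 genes passed an adjusted p of 0.05, and neither did any of the 18514 genes tested (0%). STAT3 had a log2FC of 0.64, OCSC against bulk (adjusted p = 0.61), and LIF had -1.08 (adjusted p = 0.66), and these were the only 2 of the 9 with an unadjusted p under 0.05, as were 1372 of all genes. STAT3 was higher in OCSC in all 4 populations and LIF lower in 3 of 4, the exception being COV318-MGP (0.59). For OSMR the log2FC was 0.49 (adjusted p = 0.90). DESeq2 called 258 genes (1.39%), again 0 of the 9, and edgeR called 49 genes, none of the 9 among them, once COV318-MGP was left out.

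Between the control lines OSMR differed most of the 9 genes. COV318-CTR exceeded OVCAR3-CTR by a log2FC of 6.78 in bulk (5.63 to 8.87) and 6.19 in OCSC (5.50 to 7.28). IL6 was also higher in COV318-CTR in both cultures (1.12 and 2.24). STAT3 was higher in bulk only (1.19), and with OSMR and IL6 it made 3 of the 9 genes past the threshold, against 53.4% of all genes. IL6 was under it in bulk with a pseudocount of 10 (0.95). In OCSC 6 were, against 54.5%, with IL6R higher (1.85) and LIFR, LIF and SOCS3 lower in COV318-CTR (-1.40, -1.40 and -2.77). JAK1 and IL6ST were under the threshold in both cultures. These comparisons share the control libraries with those above.

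The genes beside OSMR on chromosome 5 did not share its pattern. LIFR is on the minus strand, and 237503 bases separate its 5′ edge from the start of OSMR on the plus strand. LIFR-AS1, an antisense RNA, reaches from within LIFR into the gap between LIFR and OSMR. In COV318-MGP the 2 genes moved apart in both cultures, with LIFR at 2.35 and 3.28 and OSMR at -5.20 and -3.54. LIFR-AS1 was higher in every manipulated library, from 6 to 21 and 16 to 40 counts in OVCAR3 and from 21 to 81 and 3 to 39 in COV318. It overlaps LIFR on the other strand. The sources do not say whether counting used the strand, so reads of LIFR and LIFR-AS1, or of OSMR and RICTOR, cannot be told apart where they overlap.

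RICTOR, a component of the kinase complex mTORC2, lies on the other side of OSMR and overlaps its last 7677 bases on the opposite strand. RICTOR was at 1050.3 to 1217 normalized counts in the OVCAR3 libraries, with a log2FC of -0.21 in bulk and -0.06 in OCSC. In COV318 it was at 2622 and 1259 in bulk (log2FC -1.06) and at 2174 and 2499 in OCSC (0.20). The difference of OSMR between the OVCAR3 libraries thus had no counterpart in RICTOR. Farther out, DAB2, an endocytic adaptor, was higher in COV318-MGP (80.8 and 230 normalized counts in bulk, 10.4 and 125 in OCSC), FYB1 was lower from at most 18 counts, GDNF had at most 27 counts, and WDR70 and EGFLAM lay between -0.13 and 0.18 wherever they had 10 counts.

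**Figure D4:**
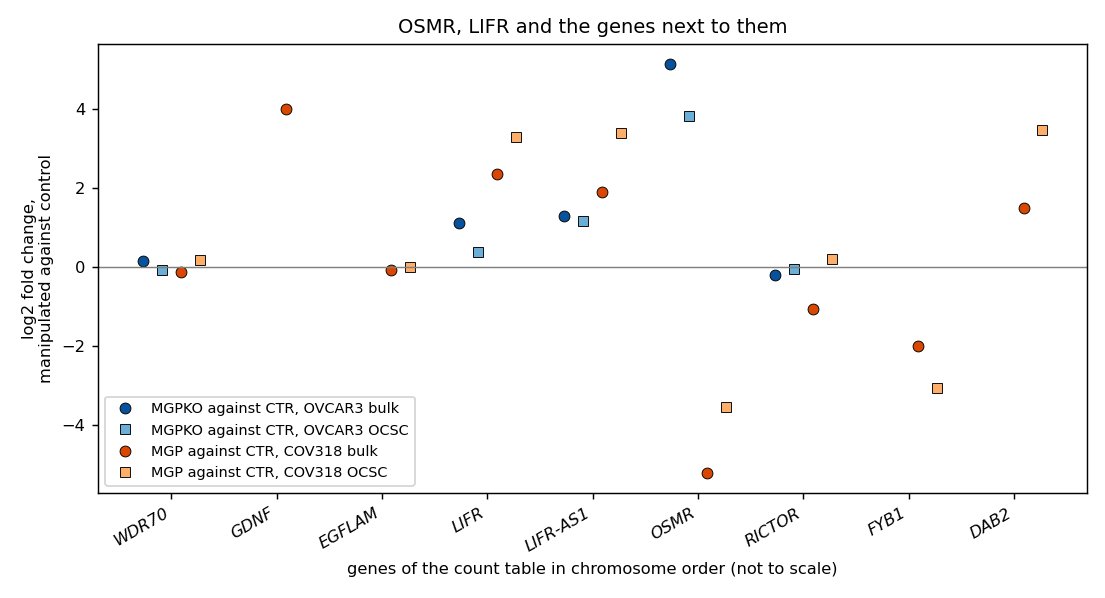
The log2 fold change (y axis) of OSMR, LIFR and the genes next to them, in the order in which they lie on the chromosome (x axis, not to scale), for the 4 comparisons of manipulated with control library. OSMR alone is above 0 in OVCAR3 and below 0 in COV318 in both cultures by more than 1.

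Over the 8 libraries, the genes whose log2(normalized count + 1) was most like that of OSMR, among 13074 genes with a mean of at least 50 normalized counts, were RPS6KC1 (Pearson's r 0.966), AP4M1 (0.958), ATP5MD (0.951), LOC100506639 (0.944) and CSKMT (0.939). The 8 points are the libraries themselves, which share their lines and size factors. OSMR was not the most variable gene, since others had a larger standard deviation of log2 values over the libraries. Its range was wider only in comparison with these 5 genes, which spanned 2.06- to 4.72-fold. OSMR spanned 145-fold, but from a lowest library, OVCAR3-CTR bulk, with only 4 counts. RPS6KC1, for example, was at 916 and 1444 in OVCAR3 bulk and 1883 and 967 in COV318 bulk, control first. Of the other 8 genes of the pathway, IL6 was under the minimum mean, and among the other 7 STAT3 had the highest r, 0.47, and LIFR the lowest, -0.23.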

How the data were processed

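The authors prepared TruSeq libraries, sequenced paired 50 nt reads on a HiSeq2000, aligned them to hg38 with STAR (2.7.5c in the submitters' processing notes) and deposited raw counts per gene, together with a normalized signal, which is each count over its library's DESeq2 size factor (median of ratios). Several kits are named, and which served these libraries, the annotation and the strand setting are not given in the sources used here. Size factors, recomputed on the 15518 genes found in all 8 libraries, gave the deposited normalized values. The log2FC was taken on the normalized count + 1. A gene entered a comparison with at least 10 counts in 1 of its 2 libraries and was counted as different at a log2FC of at least 1 in size. A library at 0 was set to a floor of 3 counts for a fold. Intervals and the floor cover counting error only, and PCR duplicates were not removed by molecular identifiers.

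TPM used merged exon lengths of GENCODE 44 for 17356 of 20339 genes, 314 of them matched by an older symbol in RefSeq. Genes named are the 9, MGP, the 5 most like OSMR, 3 neighbours on each side of OSMR and LIFR, ligands and receptors of the family, and pathway genes past the threshold in both cultures of a line with at least 50 counts. CISH, SOCS1, JAK2, TYK2, STAT5B, PTPN11, PIAS1, PIAS3, PIM1 and JUNB were named after their values were seen. Of the pathway lists, 2 genes are not reported here and were left out of the lists and their counts, and 4 more were not analysed but remain in the stated list sizes. The 9 genes and all lists were chosen with earlier results of these data known, and the STAT3 target, pathway and marker lists come from general knowledge.

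Alternatives were TMM factors, CPM scaling by totals, size factors within each pair, the deposited values, pseudocounts of 0.5, 5 and 10, no minimum count or 50, thresholds of 1.5 and 2, Spearman correlation, a mean of at least 200 and the longest transcript. OCSC against bulk over the 4 cell populations was added after seeing the data, with edgeR (at least 10 counts in 2 libraries, TMM, population as block) and DESeq2 1.42.0. TMM factors came from edgeR 4.0.16 in R 4.3.3. All else was computed in Python 3.11.15 (pandas 2.3.3 and numpy 2.4.6 for tables, scipy 1.17.1 for intervals, matplotlib 3.10.9 for plots). The functions were tested on simulated counts.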

Additional observations from a re-analysis of the deposited data

Results flagged for a closer look

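With 1 library per condition, no difference between the lines was tested, and 4 results are listed because the log2FC was at least 1 in size and of opposite sign in OVCAR3 and COV318, with at least 50 counts in 1 library of each pair. STAT5A (1.39 and -7.01) and EBI3 (1.86 and -4.60) met the first condition in bulk but had at most 47 and 12 counts in OVCAR3. OSMR differed between the lines by 10.3 on the log2 scale in bulk (5.13 in OVCAR3, -5.20 in COV318), the contrast by which it was picked, and by 7.36 in OCSC (3.82 and -3.54). STAT5A differed in OCSC by at least 7.96 (1.66 in OVCAR3, -6.30 or lower in COV318, where COV318-MGP had 0 counts). ICAM1 differed in OCSC by at least 9.80 (1.36 in OVCAR3, -8.44 or lower in COV318, where COV318-MGP again had 0 counts). The 2 COV318-MGP libraries stood apart from COV318-CTR across genes, and the part of this in the 4 results was not tested.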

How the results depend on the processing

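Between a manipulated library and its control there is no replicate to pair or leave out. For OCSC against bulk with each cell population's pair as a block, edgeR called 0 genes, DESeq2 258, and edgeR 0 to 49 when 1 population was left out, with 0 of the 9 genes in each. Over the alternative scalings and pseudocounts, 583 of 630 recomputed log2FC values of the 9 genes stayed within the counting interval and 47 moved out of it. None past the threshold changed sign. The 630 include values from the deposited normalized counts, which equalled the main ones and so could not move. Scaling by library totals raised the median log2FC of all genes by 0.14 in OVCAR3 bulk and 0.29 in COV318 bulk. It took IL6R in COV318 OCSC to -1.03, past the threshold. In OVCAR3 bulk it took IL6ST to -0.88 and JAK1 to -0.95, under the threshold, and SOCS3 to 1.07, past it, which would give SOCS3 opposite directions in the 2 lines in bulk.

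Among the 9 genes, the number past a threshold of 1.5 was 1 in OVCAR3 bulk, 1 in OVCAR3 OCSC and 4 in COV318 OCSC. It was 0 for OCSC against bulk in OVCAR3-MGPKO and 1 between the control lines in bulk. Of all genes, 1134 were higher and 596 lower at 1.5 in OVCAR3 bulk (15734 tested), and 557 and 368 in OVCAR3 OCSC (15907). In COV318 OCSC 3242 were higher and 3371 lower (17150). For OCSC against bulk in OVCAR3-MGPKO the numbers were 706 and 774 (16203), and between the control lines in bulk 3906 and 3033 (17809). At a threshold of 2 the number among the 9 was 1, 1, 5 and 4 in OVCAR3 bulk, OVCAR3 OCSC, COV318 bulk and COV318 OCSC. For OCSC against bulk it was then 0 in OVCAR3-CTR, 0 in OVCAR3-MGPKO and 1 in COV318-MGP. Between the control lines it was 1 in bulk and 3 in OCSC. Of all genes, 629 were higher and 281 lower at 2 in OVCAR3 bulk, and 284 and 177 in OVCAR3 OCSC. In COV318 bulk 2675 were higher and 3014 lower (19075 tested), and in COV318 OCSC 2459 and 2634. OCSC against bulk had 660 and 523 in OVCAR3-CTR (15510), 421 and 412 in OVCAR3-MGPKO and 365 and 253 in COV318-MGP (16843). The control lines had 2967 and 2280 in bulk and 2577 and 2595 in OCSC (16901). OSMR stayed past 2 in all 4 comparisons of manipulated with control library.

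Among the 40 other pathway genes, the number past 1 was 13 of 38 tested, 9 of 37, 27 of 37 and 24 of 38 in those 4 comparisons, against 21.1%, 12.5%, 50.5% and 53.1% of all genes. At 1.5 it was 8 in OVCAR3 bulk and, for OCSC against bulk, 8 in OVCAR3-CTR, 5 in OVCAR3-MGPKO and 5 in COV318-CTR. At 2 it was 4 in OVCAR3 bulk, 2 in OVCAR3 OCSC and 11 between the control lines in OCSC. For OCSC against bulk it was then 4, 2, 4 and 4 in OVCAR3-CTR, OVCAR3-MGPKO, COV318-CTR and COV318-MGP. A minimum of 50 counts gave 5 in OVCAR3-MGPKO and no minimum gave 14 in COV318-MGP for OCSC against bulk. Of all genes, OCSC against bulk had 1149 higher and 1014 lower at 1.5 in OVCAR3-CTR (15510 tested), and 839 and 933 in COV318-CTR (17077). At 2 COV318-CTR had 501 and 557. A minimum of 50 counts gave 830 and 665 of 12758 in OVCAR3-MGPKO, and no minimum 2181 and 2032 of 20339 in COV318-MGP. The other numbers over all genes at 1.5 and 2 are given above. Of the 5 genes most like OSMR, 1 remained with Spearman's rho and 3 with a mean of at least 200. OSMR over LIFR in COV318-CTR bulk was 3.60 with the longest transcript. Low counts limit OSMR in OVCAR3-CTR (4 and 12) and IL6 in COV318-MGP (3 and 2).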
